A study of Caenorhabditis elegans with 2 samples.

Results

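The vitellogenin genes of *Caenorhabditis elegans* encode the yolk proteins. All 6 of them, *vit-1* to *vit-6*, were taken by name from the Ensembl annotation of assembly WBcel235, the same assembly as build ce11, out of 19973 protein-coding genes. ATF-7 is a bZIP protein related to the mammalian ATF and CREB factors, and its binding was mapped by ChIP-seq, the sequencing of DNA that is precipitated with a protein, in whole young adults with both sexes pooled. The worms were of strain OP638, genotype unc-119(tm4063) III; wgIs638, a line that stably expresses ATF-7 with a GFP-FLAG tag at its C terminus, and they had been synchronised by bleaching and starvation at the first larval stage. The data form 1 group of 2 samples, biological replicates 2 and 3, from separate biosamples of that strain, so no condition was compared with another. The labels give an anti-GFP antibody in the description and atf-7 in the antibody field. Tagged ATF-7 came from every tissue that expresses the transgene, so the lists do not say in which tissue a site was bound.

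Vitellogenins are made in the intestine of the adult hermaphrodite, where their genes are among the most strongly transcribed, and they are secreted into the body cavity as lipid-loaded particles. Oocytes take them up through the receptor RME-2. The intestinal GATA factor ELT-2 binds vitellogenin promoters, and short shared elements were defined in them. One, VPE1, has the letters TGTCAAT. The other, VPE2, has the letters CTGATAA and is a binding site for GATA factors.

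Peaks were read from 4 lists of the authors in build ce11. These were 2247 peaks kept by their irreproducible discovery rate (IDR peaks), and the relaxed lists of 30000 peaks for the pooled reads, 28126 for replicate 2 and 30000 for replicate 3. A relaxed list runs down to weak peaks so that replicates can be compared. The authors title these lists peaks and background, so a relaxed entry need not be a bound site. The IDR peaks were drawn from them, so an IDR peak is found in the relaxed lists largely by construction. The signal is the authors' own value per peak. It ran from 104.608 to 1585.89 in the IDR list, with a median of 148.585, and its scale differs between lists, so replicates are compared by rank. The read depth of the libraries is unknown from the files.

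The gene *vit-1* (WBGene00006925) lies at X:7727889-7733168 on the plus strand, *vit-2* (WBGene00006926) at X:5101042-5106169 on the plus strand and *vit-5* (WBGene00006929) at X:3403471-3408603 on the plus strand. The neighbours *vit-3* (WBGene00006927, X:3567355-3572549) and *vit-4* (WBGene00006928, X:3558769-3563965) lie in tandem on the minus strand, and *vit-6* (WBGene00006930, IV:8261157-8266459, plus strand) is the only one away from chromosome X. They are 5128 to 5303 bp long with 5 or 6 exons, almost all of the length is coding, and the annotated 5′ end lies 0 to 16 bp before the start codon.

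The 250 bp upstream of each annotated 5′ end are shown because they carry the GATA sites for which these promoters are known. They were read from the WBcel235 genome sequence of RefSeq, 5′ to 3′ in the direction of transcription, and the capitals mark TGATAA, or TTATCA where the site is on the other strand.
*vit-1*, X:7727639-7727888, plus strand: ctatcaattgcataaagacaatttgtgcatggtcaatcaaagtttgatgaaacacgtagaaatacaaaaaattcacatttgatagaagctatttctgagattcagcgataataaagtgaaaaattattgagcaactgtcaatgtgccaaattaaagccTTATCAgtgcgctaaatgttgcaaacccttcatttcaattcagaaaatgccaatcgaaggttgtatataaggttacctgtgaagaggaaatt
*vit-2*, X:5100792-5101041, plus strand: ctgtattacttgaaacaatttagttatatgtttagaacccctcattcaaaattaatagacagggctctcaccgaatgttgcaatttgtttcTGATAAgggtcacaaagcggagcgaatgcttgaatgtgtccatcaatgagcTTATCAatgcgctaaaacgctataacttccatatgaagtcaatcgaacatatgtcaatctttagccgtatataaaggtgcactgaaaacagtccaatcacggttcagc
*vit-3*, X:3572550-3572799, minus strand: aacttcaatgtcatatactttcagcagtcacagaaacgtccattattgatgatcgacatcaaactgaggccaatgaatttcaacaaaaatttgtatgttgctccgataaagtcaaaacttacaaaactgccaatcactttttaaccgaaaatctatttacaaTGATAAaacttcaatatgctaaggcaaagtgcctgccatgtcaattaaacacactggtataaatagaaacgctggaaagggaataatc
*vit-4*, X:3563966-3564215, minus strand: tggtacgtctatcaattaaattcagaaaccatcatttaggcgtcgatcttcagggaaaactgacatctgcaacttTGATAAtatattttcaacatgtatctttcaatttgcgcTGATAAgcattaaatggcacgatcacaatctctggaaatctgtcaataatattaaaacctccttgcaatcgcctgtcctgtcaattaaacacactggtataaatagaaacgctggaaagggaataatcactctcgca
*vit-5*, X:3403221-3403470, plus strand: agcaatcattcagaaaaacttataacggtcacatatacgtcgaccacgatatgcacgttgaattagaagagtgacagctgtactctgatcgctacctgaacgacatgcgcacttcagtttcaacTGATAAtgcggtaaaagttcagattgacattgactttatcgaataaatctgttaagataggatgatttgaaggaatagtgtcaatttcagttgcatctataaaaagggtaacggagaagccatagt
*vit-6*, IV:8260907-8261156, plus strand: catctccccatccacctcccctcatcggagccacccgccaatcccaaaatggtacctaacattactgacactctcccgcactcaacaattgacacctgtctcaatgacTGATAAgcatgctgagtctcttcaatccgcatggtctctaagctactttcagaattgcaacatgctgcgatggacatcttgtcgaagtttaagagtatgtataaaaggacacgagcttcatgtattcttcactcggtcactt

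Every vitellogenin promoter had a TGATAA on 1 of its strands. There were 8 in all, with pairs in *vit-2* and *vit-4* and 1 in each of the others. Their first bases, counted from the 5′ end, lay 92 bp upstream in *vit-1*, 159 and 108 bp in *vit-2*, 88 bp in *vit-3*, 175 and 137 bp in *vit-4*, 126 bp in *vit-5* and 142 bp in *vit-6*. Of all 19973 protein-coding promoters of this length, 26.8% held TGATAA and 6.40% held at least 2. The longer VPE2 word CTGATAA, which contains TGATAA, was found in 5 of the 6 promoters, all but *vit-3*, against 7.20% of all promoters. The VPE1 word TGTCAAT was found in 6 of 6, with pairs in *vit-4* and *vit-5*, against 4.81%. Both elements were defined in vitellogenin promoters, so these counts were largely fixed beforehand and are no result of these data. The broader GATA consensus, in which the 4 letters follow A or T and are followed by A or G, was in 6 of 6 against 49.1%.

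The word that ATF and CREB factors are known to bind, the palindromic cyclic-AMP response element TGACGTCA, was in 0 of the 6 vitellogenin promoters and in 1.23% of all promoters, so few promoters of any kind hold it. Its 5-base part TGACG, which lies within the palindrome and is counted with it, was in 0 of 6 and in 23.4%. The E-box CACGTG (0 of 6 against 4.94%) and the GA repeat GAGAGAGA (0 of 6 against 3.22%) were also not found in these windows. With 6 promoters, 0 is near the share of all promoters for each of these words. In the 2000 bp upstream, TGACGTCA was still in 0 of 6 against 9.52%, while TGACG was in 5 of 6 against 87.3%. All words were searched on both strands, and a match or its lack says only what letters a window holds.

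Peaks of at least 1 list lay at all 6 vitellogenin genes, at *vit-4* in the relaxed lists alone. From 2 kb upstream of the 5′ end to the gene end, 5 of the 6 genes overlapped an IDR peak by at least 1 base, all but *vit-4*, against 11.7% of all protein-coding genes. Counted by IDR summits inside this span it was 4 genes, without *vit-1* and *vit-4*, against 10.4%. Vitellogenin genes are long, with a median span of 7196 bp against 4027 bp for all genes. Among the 2505 genes with a span of 6000 to 9000 bp, 16.2% had an IDR peak. In the relaxed lists all 6 genes had a peak, against 63.8% of all genes in the pooled reads, 68.2% in replicate 2, 65.1% in replicate 3 and 52.5% in all 3 lists together, so the relaxed counts say little about these genes. The IDR list had 14 entries that overlapped the spans, 5 at *vit-6*, 3 each at *vit-2* and *vit-5*, 2 at *vit-3*, 1 at *vit-1* and 0 at *vit-4*. An entry is 1 summit. A broad peak can have several, as past *vit-2* and *vit-5*, and 7 of the 14 summits lay outside the span that their peak overlaps.

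**Figure D1:**
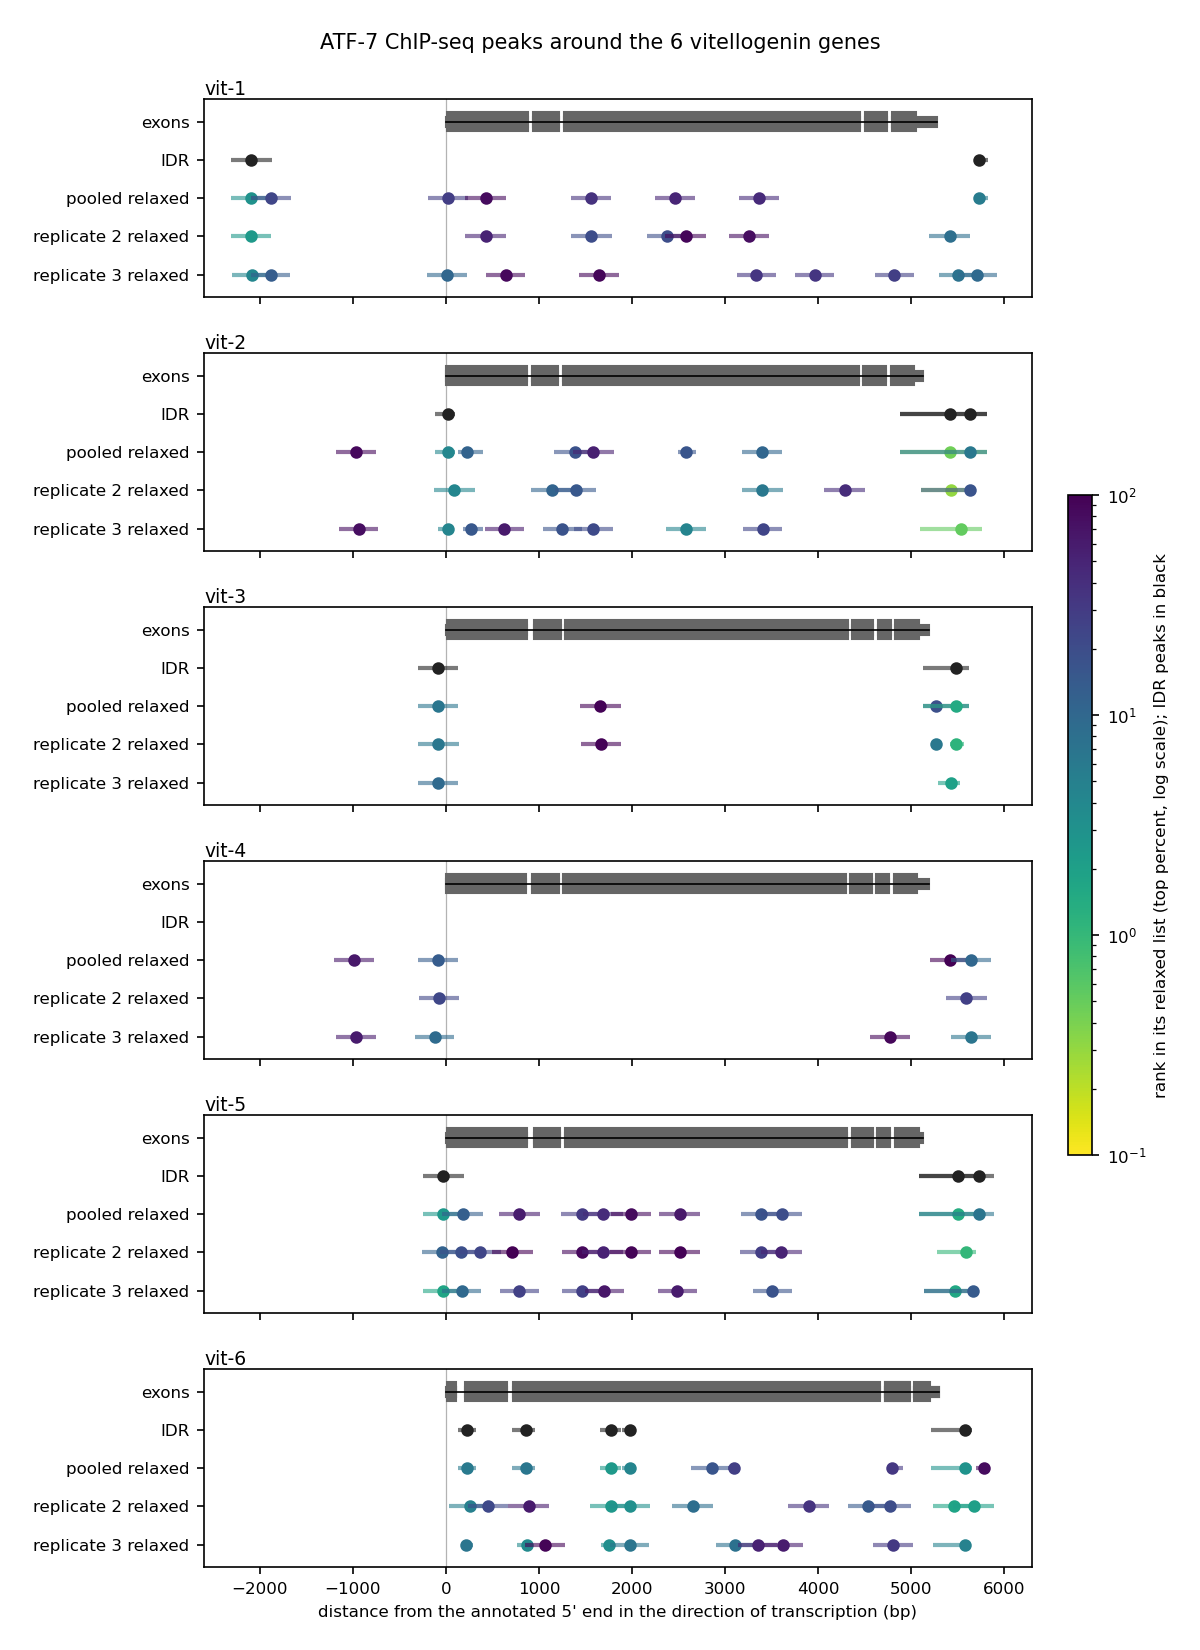
Peaks around each vitellogenin gene, by distance from the annotated 5′ end in the direction of transcription (bp). Horizontal lines are peaks and points their summits, coloured by rank within the relaxed list (top percent, log scale) with IDR peaks in black, and grey boxes are exons. Summits lie near the 5′ end and past the gene end in every gene, recur along the bodies of *vit-1*, *vit-2*, *vit-5* and *vit-6*, and are nearly missing from those of *vit-3* and *vit-4*.

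At the 5′ end, 4 of the 6 genes (*vit-2*, *vit-3*, *vit-5* and *vit-6*) had an IDR summit within 250 bp, against 2.99% of all genes. A relaxed summit lay in that window in 6 of 6 genes in the pooled list (21.1% of all genes), in 4 in replicate 2 (19.3%), in 6 in replicate 3 (20.8%) and in 4 in all 3 lists (10.6%). The genes with a summit there in all 3 relaxed lists were *vit-2*, *vit-3*, *vit-4* and *vit-5*.

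The strongest of the 5′ peaks in the IDR list and in replicate 3 was that of *vit-5*, at X:3403226-3403661 with its summit 27 bp upstream. Its signal was 177.332 in the IDR list, rank 764 of 2247, and its relaxed summits had signals of 37.2175 in replicate 2 (rank 3295) and 137.637 in replicate 3 (rank 515). The replicates placed it differently, in the top 11.72% of the list of replicate 2 and the top 1.717% of that of replicate 3. In replicate 2 the 5′ peaks of *vit-2* (57.7183) and *vit-3* (47.8564) were stronger. The *vit-2* peak, X:5100924-5101139, had its summit 20 bp inside the gene, in the first coding exon, with a signal of 141.3 (rank 1234). In the relaxed lists it ranked 1190 in replicate 2 and 1310 in replicate 3, so here the replicates ranked it alike. The summit lay 92 bp inside the gene in replicate 2 and 20 bp inside in replicate 3. The *vit-3* peak, X:3572416-3572851, had its summit 85 bp upstream, inside the TGATAA that begins 88 bp upstream in the sequence above, and a signal of 111.959 (rank 1968). It ranked 1809 in replicate 2 and 2844 in replicate 3.

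The first *vit-6* peak, IV:8261283-8261481, had its summit 222 bp inside the gene in a coding exon, with a signal of 117.259. The nearest summit of replicate 2 lay 255 bp inside the gene, just outside the window of 250 bp, with a signal of 52.5586, and that of replicate 3 lay 220 bp inside with 71.0353. Upstream of the *vit-6* 5′ end no list had a summit within the 2 kb. The *vit-1* and *vit-4* ends had relaxed peaks only. For *vit-1* the pooled signal was 52.7225 (rank 8507), 25 bp inside the gene, replicate 3 had a summit 11 bp inside with 56.9014 (rank 3109), and replicate 2 had none in the window. For *vit-4* the pooled signal was 76.0931 (rank 4109) with a summit 87 bp upstream, and the replicates had 28.2448 (replicate 2, rank 6481) and 60.6571 (replicate 3, rank 2766). Both pooled values were under 104.608, the lowest signal of the IDR list.

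The 5′ ends of *vit-3* and *vit-4* share sequence. Their promoters hold an identical run of 50 bp, which includes a TGTCAAT and ends 0 bp before the 5′ end of *vit-3* (X:3572550-3572599, minus strand) and 9 bp before that of *vit-4*. It is shown because the peaks of both genes cover it.
*vit-3* and *vit-4* shared run: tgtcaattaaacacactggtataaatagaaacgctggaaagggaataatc

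Of the 36-base words in the *vit-3* 5′ peak 28.2% occur elsewhere in the genome, and of those in the *vit-4* pooled peak 29.9%. The corresponding shares were 8.98% for the 5′ IDR peak of *vit-5* and 0% for those of *vit-2* and *vit-6*. The sources used here do not give the read length or how reads that fit several places were treated, so how much of the *vit-3* and *vit-4* signal at these ends came from either copy cannot be told apart.

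Past the gene end the vitellogenin genes had stronger peaks than at the 5′ end, in 6 of 6 genes in the pooled list and in replicate 3. In replicate 2 this held for 3 of the 4 genes with summits at both ends, and *vit-4* was the other way round. An IDR summit lay 1 to 600 bp past the end of 5 of the 6 genes, all but *vit-4*, against 3.27% of all genes. A relaxed summit lay there in 6 of 6 genes in the pooled reads (26.2% of all genes), replicate 2 (24.2%), replicate 3 (26.3%) and all 3 lists (14.9%). The window of 600 bp was chosen with these summits in view.

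The strongest vitellogenin peak of the data lay past *vit-2*, X:5105927-5106863, with its summit 294 bp past the gene end and a signal of 369.301, rank 134 of 2247. Replicate 2 had a summit 4 bp away with 168.714, rank 87 of 28126. Replicate 3 had 1 summit over the region, 93 bp from a weaker IDR summit of the same peak (113.554, 502 bp past the end), with 216.996, rank 159 of 30000. Both IDR summits lie in a coding exon of the neighbour *C42D8.9*. By the deposited signal this was also the fifth strongest of all IDR peaks with a summit in a coding exon, after those in *K11D12.14* (776.739), *dos-3* (691.643), *mdt-26* (515.767) and *pks-1* (377.387).

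Past *vit-5*, the peak X:3408558-3409244 had its summit 372 bp beyond the gene in a coding exon of *unc-78*, which encodes an actin-interacting protein, with a signal of 232.659 (rank 412), and 103.503 in replicate 2 (rank 294) and 141.834 in replicate 3 (rank 476). A second summit, 595 bp past the end with 110.413, lay in a non-coding exon of *unc-78*. Past *vit-3*, X:3566926-3567419 had its summit 286 bp beyond the gene, between *vit-3* and *vit-4*, with a signal of 224.983 (rank 448), and 98.6746 (replicate 2, rank 322) and 129.024 (replicate 3, rank 592). The stronger summit past *vit-5* and that past *vit-3* were in the top 2% of each relaxed list.

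Past *vit-6*, IV:8266370-8266814 had its summit 280 bp beyond the gene, in the 3′ UTR of *K07H8.8*, with 168.593 (rank 861), and 77.4035 in replicate 2 and 86.4317 in replicate 3. Past *vit-1*, X:7733585-7733712 had its summit 452 bp beyond the gene, in a coding exon of *set-12*, a SET domain gene, with 120.259 (rank 1716) and 59.8479 in replicate 3. This peak does not touch the gene and is outside the count of 14, and replicate 2 had no summit within 100 bp of it. The strongest summit past *vit-1* was at 137 bp in replicate 2 (43.021, rank 2338) and at 228 bp in replicate 3 (68.1808, rank 2236). Past *vit-4* the pooled signal was 88.7715 (rank 3076) at 446 bp, with 26.3323 at 399 bp in replicate 2 (rank 7698) and 70.6717 at 446 bp in replicate 3 (rank 2061). Of the 36-base words within 600 bp past the end of any of the 6 genes, 0% occur elsewhere in the genome.

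**Figure D2:**
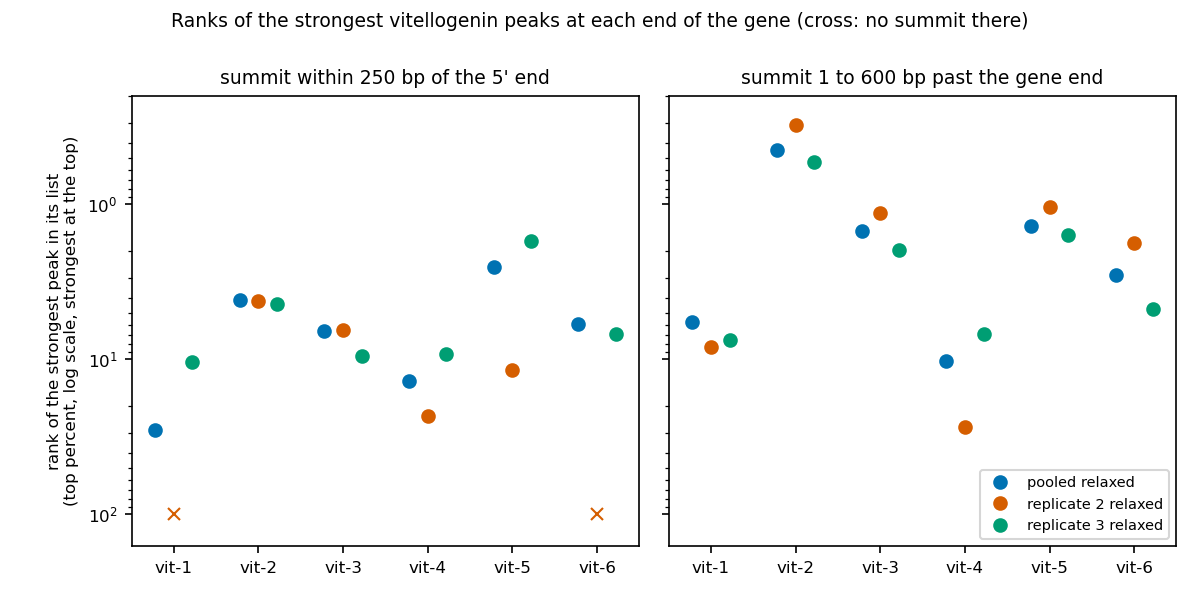
Rank of the strongest summit within 250 bp of the 5′ end (left) and 1 to 600 bp past the gene end (right) in each relaxed list, as the top percent of the list on a log axis with the strongest at the top. Each point is 1 list and crosses mark lists with no summit in the window. In *vit-2* the summits past the end stand in the top 0.3093% to 0.53%, and *vit-4* has the weakest ranks past the end in replicate 2 and the pooled list.

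The single IDR peak counted for *vit-1*, X:7725580-7726015, reached into the window from beyond it. Its summit lay 2091 bp upstream of *vit-1*, in the non-coding RNA gene *K09F5.9*, and nearer to the 5′ end of *spp-14*, which encodes a saposin-like protein. Its signal was 164.164 (rank 906), with 72.4503 in replicate 2 and 91.5449 in replicate 3. Counted by its summit, *vit-1* had no IDR peak in its span.

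In coding sequence *vit-6* had the most IDR summits of the vitellogenin genes. Its exons held 4 IDR summits, at 222, 856, 1776 and 1975 bp from the 5′ end, and *vit-2* had 1, at 20 bp, while the other 4 genes had none. Of all 19973 genes, 1.07% had an IDR summit in a coding exon, 6 genes had at least 2, 2 genes had at least 3, and *vit-6* alone had 4. These counts are not adjusted for coding length, and *vit-6* has 4950 bp of coding sequence. Such summits made up 222 of the 2247 in the list (9.88%, exact 95% Clopper-Pearson interval 8.677 to 11.19, which covers counting error only), with a median signal of 129.9.

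The strongest peak within *vit-6*, IV:8262811-8263037, had a signal of 180.289 (rank 736), with 71.9639 in replicate 2 (rank 699) and 102.908 in replicate 3 (rank 977). It stood 46th among coding-exon peaks by signal, and the *vit-2* peak 90th. The peak next to it, IV:8263054-8263171, had 137.007, with 64.9463 and 71.2832 in replicates 2 and 3. Both ranked high in both replicates. The peak at 856 bp, IV:8261863-8262119, did not, with 111.76 in the IDR list, 95.5505 in replicate 3 (rank 1144) and 18.4857 in replicate 2 (rank 17019). The strongest of these is shown as sequence because it is entirely coding, and the capital marks the summit base.
*vit-6* exon peak: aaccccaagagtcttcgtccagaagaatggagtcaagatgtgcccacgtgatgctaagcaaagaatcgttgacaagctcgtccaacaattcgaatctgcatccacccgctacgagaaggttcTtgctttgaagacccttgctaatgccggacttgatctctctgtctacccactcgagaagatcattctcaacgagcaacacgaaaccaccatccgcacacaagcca

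It holds 1 CACGTG and none of the other words searched, and its GC content is 49.3%. Across the 14 IDR summits of peaks that overlap the vitellogenin spans, TGACGTCA lay within 100 bp of 0 summits, against 9.79% of all 2247 IDR summits, and TGACG near 1 (40.4%). TGTCAAT lay near 5 of the 14, against 5.12%, at the 5′ peaks of *vit-2*, *vit-3* and *vit-5* and past the ends of *vit-5* and *vit-6*. As that word was defined in vitellogenin promoters, its presence at the 5′ peaks was largely fixed by where they lie. TGATAA lay near 3 (28.0%), at the 5′ peaks of *vit-3* and *vit-5* and at the summit 2091 bp upstream of *vit-1*, nearer to *spp-14*. CTGATAA lay near 2 (9.97%), that *vit-1* summit and the 5′ peak of *vit-5*. The broader GATA consensus lay near 6 (46.5%), again with that *vit-1* summit among them. CACGTG lay near 2, both in *vit-6* exons (11.8%), and GAGAGAGA near 0 (8.86%). Peaks of the same gene share their surroundings, so these 14 are not independent.

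Relaxed summits recurred along the bodies of 4 vitellogenin genes, while those of *vit-3* and *vit-4* were almost free of them. Many of these summits were weak. The deposited −log10 q, higher for surer peaks, ran in the pooled body summits from 0.1031 to 0.7337 in *vit-1* and 0.2434 to 3.717 in *vit-2*. It ran from 0.1003 to 2.194 in *vit-5* and 0.578 to 3.717 in *vit-6*. Whether the weak ones are bound sites was not tested. Per kb of gene, the pooled list had 0.947 summits in *vit-1*, 1.17 in *vit-2*, 1.559 in *vit-5* and 1.32 in *vit-6*, against 0.1925 in *vit-3* and 0 in *vit-4*. Over the 16322 protein-coding genes of at least 1 kb the median was 0 and the 95th percentile 1.149, and 8.67% of them had more per kb than *vit-1*, 4.71% more than *vit-2*, 1.64% more than *vit-5* and 3.14% more than *vit-6*. Replicate 2 had 0.947, 0.975, 0.1925, 0, 1.753 and 1.697 in *vit-1* to *vit-6*, where the median was 0.1229 and the 95th percentile 1.063. Replicate 3 had 1.136, 1.365, 0, 0.1924, 1.169 and 1.697, against a median of 0.0928 and a 95th percentile of 1.128. The same 4 genes were above the median in all 3 lists, *vit-5* and *vit-6* above the 95th percentile in all 3, and *vit-1* above it in replicate 3 alone. In each list *vit-3* and *vit-4* had at most 1 summit each. This is common among genes: 50.55% of those of at least 1 kb had no summit in the pooled list, 48.32% in replicate 2 and 49.5% in replicate 3. By density *vit-3* was above the median in the pooled list and replicate 2, and *vit-4* in replicate 3. Coding exons held 27 of the 27 pooled summits in the 6 genes, 29 of 29 in replicate 2 and 26 of 29 in replicate 3. Over all protein-coding genes 45.2%, 44.4% and 44.7% of the summits in genes lay there. Coding sequence makes up 93.1% of the length of the vitellogenin genes and 38.4% of that of all protein-coding genes, so these counts are near what the structure of the genes gives.

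**Figure D3:**
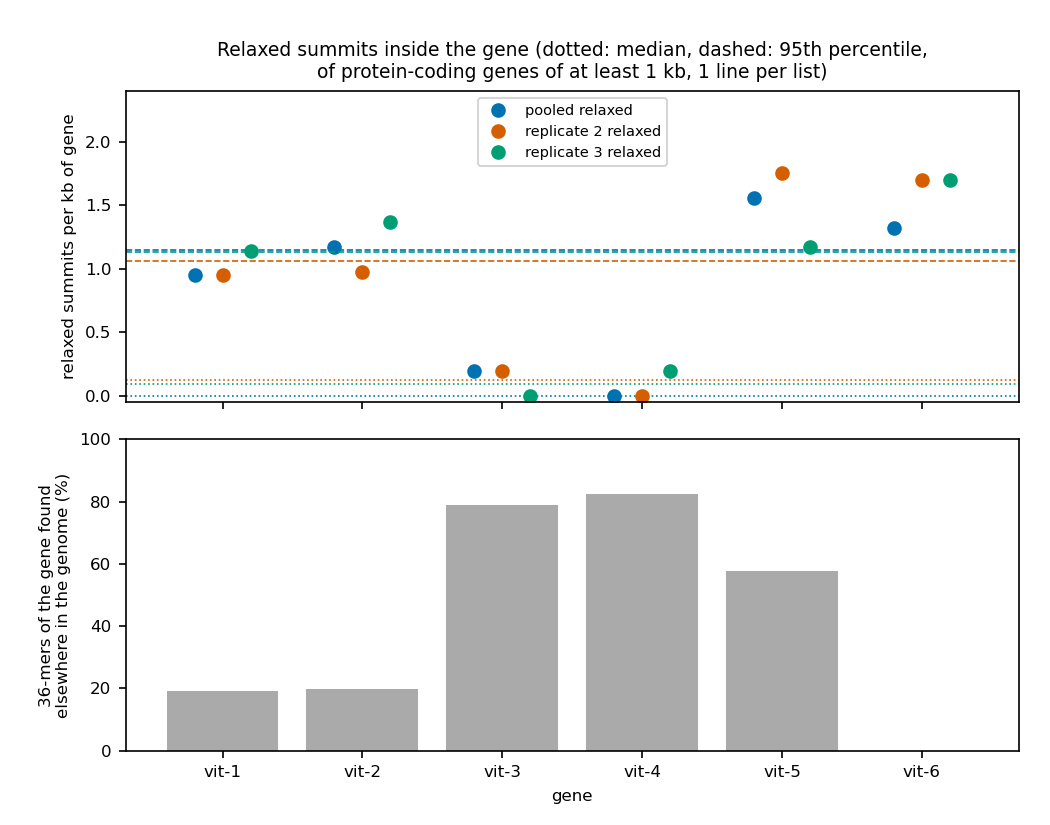
Top, relaxed summits per kb of gene in each list (points), with the median (dotted) and the 95th percentile (dashed) of protein-coding genes of at least 1 kb. Bottom, the share of the 36-base words of each gene that occur elsewhere in the genome (%). The densities of *vit-3* and *vit-4*, the genes with 78.9% and 82.4% of such words, are at or below 0.1925 per kb, while *vit-5*, with 57.6%, is among the densest.

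The genes differ in how much of their sequence is repeated. Of the 36-base words of *vit-3* and *vit-4*, 78.7% and 82.4% also occur in another vitellogenin gene, of *vit-5* 57.6%, of *vit-1* 19.3%, of *vit-2* 19.9% and of *vit-6* 0%. Over the 6 genes the share was 42.79% of 31026 words, and 42.82% occurred anywhere else in the genome, so almost all copies are within the family. Coding sequences were 99% identical between *vit-3* and *vit-4*, 97.71% between *vit-3* and *vit-5*, 97.82% between *vit-4* and *vit-5* and 93.97% between *vit-1* and *vit-2*. Across these 2 subfamilies identity was 67.45% to 68.91%, and *vit-6* was 57.91% to 58.62% identical to the others. The emptiest bodies of the 6, *vit-3* and *vit-4*, were thus those with the most repeated sequence. The *vit-5* body was dense with more repeated than single-copy words, and *vit-6* was dense with none. The part of repeated sequence in the peak densities was not tested.

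**Figure D4:**
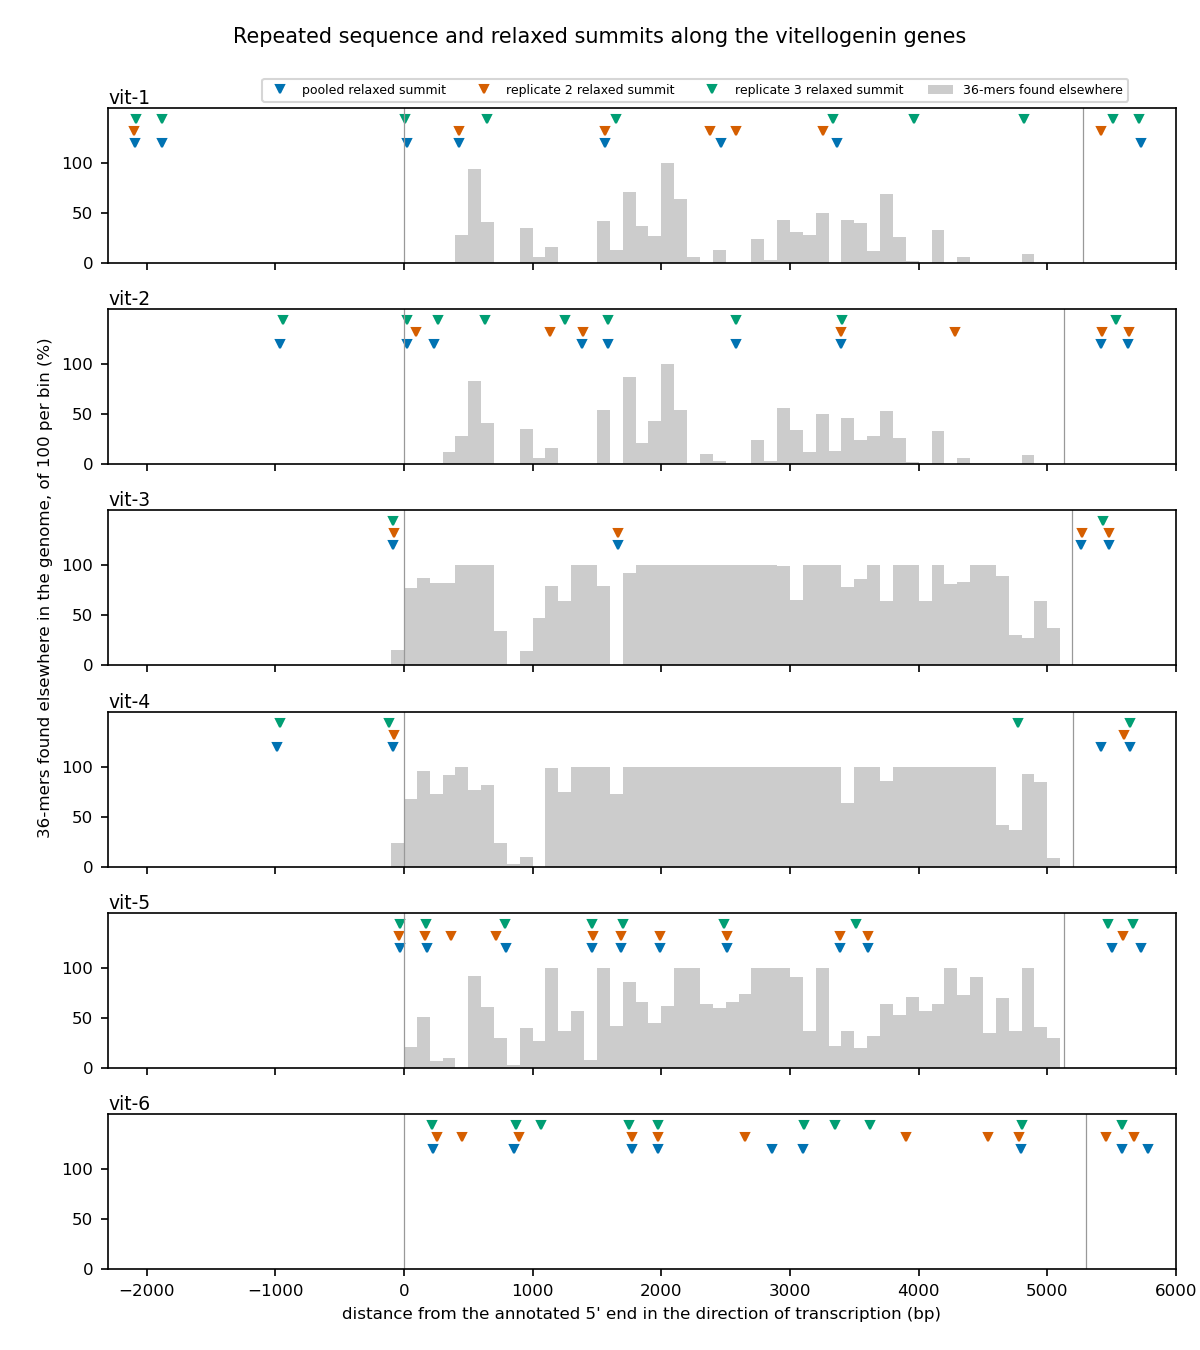
Share of 36-base words found elsewhere in the genome, in bins of 100 bp along each gene (grey, %), with relaxed summits of the 3 lists as triangles, by distance from the 5′ end in the direction of transcription (bp); vertical lines mark both gene ends. Repeated sequence covers the bodies of *vit-3* and *vit-4* and stops before the summits past the gene end, and *vit-6* has none.

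Genes that act with the vitellogenins were looked at in the same way. Of 41 genes of yolk uptake, lipid supply, secretion, transcription, timing and signalling, 16 had an IDR peak in their span, against 11.7% of all genes. Their spans ran from 2433 bp (*elt-4*) to 48333 bp (*daf-2*), with a median of 7884 bp. Among all genes with spans of 6000 to 9000 bp 16.2% had one. Several of the 16 were longer than that, such as *daf-16* (28206 bp), *lin-14* (22312 bp) and *rict-1* (20572 bp), while *dsc-4* and *nhr-49* were within it. That share is thus not matched in length to the list of 41. An IDR summit lay within 250 bp of the 5′ end in 2 of the 41, against 2.99% of all genes. In the pooled list 37 of 41 had a peak, against 63.8%.

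Of the uptake genes, which include the yolk receptor *rme-2*, 0 of 6 had an IDR peak, which with so few genes is near the share among all genes. In the lipid genes 3 of 7 had one, against 11.7% of all genes. The median span of these 7 was 7489 bp, against 4027 bp for all genes. The highest signals were 277.144 in an intron of *pod-2* (acetyl-CoA carboxylase) and 199.016 in an intron of the nuclear receptor gene *nhr-49*. The signal was 105.005 for *dsc-4*, the microsomal triglyceride transfer protein that loads lipid. Its summit lay 2115 bp upstream and so beyond the 2 kb window that its peak overlaps. Of the 3 secretion genes *sar-1*, a GTPase of COPII vesicle budding, had one (117.958, 300 bp upstream). With so few genes this count says little beside the 11.7% of all genes.

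The 14 transcription and timing genes had a median span of 7472 bp, and no share matched to them in length was computed. Of them 7 had an IDR peak, against 11.7% of all genes and 16.2% of those with spans of 6000 to 9000 bp. The strongest lay in an intron of *ceh-60* (344.997, rank 161), a homeobox activator of vitellogenin genes, with 100.842 in replicate 2 (rank 308) and 244.211 in replicate 3 (rank 121). The GATA factor gene *elt-2* had one 482 bp upstream of its 5′ end (174.804, rank 791). The others were *daf-16* (174.832), *pqm-1* (162.632), *lin-29* (155.459), *lin-14* (130.973) and *lin-28* (110.446). Against 11.7% of all genes and with a median span of 9410 bp, 5 of the 11 signalling genes had one. They were the Smad cofactor gene *sma-9* (217.393), the Smad gene *sma-2* (180.55, 32 bp inside the gene in its 5′ UTR), *sgk-1* (130.307) and *rict-1* (113.077) of the TORC2 pathway, and the BMP receptor gene *sma-6* (122.937), where the summit lay past the gene end. The 2 genes with an IDR summit within 250 bp of the 5′ end were *sma-2* and *lin-14*.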

How the data were processed

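ChIP-seq peak lists of 2 samples, biological replicates 2 and 3, were used in build ce11. Per the labels and the deposited listings, the authors called relaxed peaks on each replicate and on their pooled reads, and the IDR list comes from these. The sources used here do not give the aligner, the peak caller, the IDR threshold or the treatment of reads that fit several places. The control named in the labels was not analysed here. The deposited signal, the authors' value per peak, was used to rank and describe peaks within a list. The deposited −log10 q values were at 3.717 in all IDR peaks of the vitellogenin spans. In the relaxed lists they varied, with 0.7337 at the *vit-1* 5′ pooled summit and 0.8728 at the *vit-4* 5′ summit of replicate 2. No peak was filtered or ranked by them. Lists in ce10 were not used.

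Genes came from Ensembl release 115 and sequence from the WBcel235 genome of RefSeq; all peaks lay within its chromosomes. Distances run from the summit, and replicate summits were matched within 100 bp. Words of 36 bases were compared on both strands, and coding identity is the share of aligned bases that match in a global alignment. Scripts used Python 3.11.15, NumPy 2.4.6, SciPy 1.17.1, Matplotlib 3.10.9 and Biopython 1.88 and were tested on simulated peaks and sequences. With 1 group there was no test between conditions: shares over all protein-coding genes stand beside the counts. The genes named are the 6 vitellogenin genes, the 41 listed yolk pathway genes, the neighbours at their peaks and the 5 strongest coding-exon peaks. The members, lists and motifs were chosen with earlier results of these data known. Other windows, stronger peaks, word lengths and leaving out each replicate were tried as alternatives.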

Additional observations from a re-analysis of the deposited data

How the results depend on the processing

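The files give no read depth, so what depth limits is unknown, and 2 samples of 1 group give no spread between conditions. The count of vitellogenin genes with an IDR peak was 4 with 1 kb upstream (9.83% of all genes), with the gene alone (6.71%) or by the summit (10.4%), *vit-1* dropping out each time. It was 6 with 5 kb (16.5%), where the window of *vit-4* reached the peak past *vit-3*, X:3566926-3567419, so that 1 peak counted for both genes. It was 5 with only the IDR peaks above the median signal (6.05%). The alternatives without replicate 2 and without replicate 3, which put the 2247 strongest peaks of the other replicate in place of the IDR list, gave 4 each (11.5% and 11.4% of all genes), *vit-1*, *vit-2*, *vit-5* and *vit-6* from replicate 3 and *vit-1*, *vit-2*, *vit-3* and *vit-6* from replicate 2. With only the 2247 strongest peaks of each relaxed list, 3 genes in place of 6 had a peak in all 3. The share of all genes with a peak in all 3 was not computed at that setting. Yolk pathway genes with an IDR peak numbered 9 in place of 16 with only those above the median signal, where the share of all genes was also lower (6.05% in place of 11.7%), and 12 (gene alone, 6.71%) to 18 (5 kb, 16.5%) otherwise. The share of repeated words, 42.79% at 36 bases, was 37.74% at 50 bases and 26.98% at 100. The settings for the windows at the gene ends were chosen after seeing the data. Within 300 bp past the gene end 3 genes, *vit-2*, *vit-3* and *vit-6*, had an IDR summit. Within 600 bp it was 6 genes without replicate 2 and 4 without replicate 3. At the 5′ end the count of 4 was 3 without replicate 2 (*vit-2*, *vit-5* and *vit-6*) and 2 without replicate 3 (*vit-2* and *vit-3*). The share of all genes was not computed for these alternatives at the gene ends, so their counts stand without a background. Smaller windows, longer words and fewer peaks lower these values by construction; for the left-out replicates the cause was not tested. No paired analysis was possible because the data hold 1 group.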

Other observations

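Inside the 6 vitellogenin genes, 15 of the 29 summits of replicate 2 had a summit of replicate 3 within 100 bp (51.7%), and 15 of the 29 of replicate 3 had one of replicate 2. Over the whole lists 34.7% of the summits of replicate 2 and 32.5% of those of replicate 3 had such a match. From replicate 3 to replicate 2 the matches were 6 of 6 in *vit-5*, 5 of 9 in *vit-6*, 2 of 6 in *vit-1* and 2 of 7 in *vit-2*. From replicate 2 to replicate 3 they were 6 of 9 in *vit-5*, 5 of 9 in *vit-6* and 2 of 5 in each of *vit-1* and *vit-2*. The shares of *vit-1* and *vit-2* are near those of the whole lists. Where many summits lie close together some match by their number alone, and this was not tested.

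Pooled peaks covered 57.3% of *vit-5*, 36.99% of *vit-1*, 36.49% of *vit-2*, 29.53% of *vit-6*, 12.22% of *vit-3* and 2.54% of *vit-4*, against a median of 6.216% over protein-coding genes of at least 1 kb. In the replicates *vit-6* was the most covered, with 63.12% in replicate 2 and 48.86% in replicate 3. In replicate 3 *vit-3*, with 2.464%, was below *vit-4*, with 9.948%, and below the median of 6.643%. The *vit-6* exon peaks of the IDR list were 118 to 257 bp wide, narrower than the commonest width of 436 bp, which 73.6% of IDR peaks had.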
